A study of Homo sapiens with 60 samples.

Results

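The genes described here are the D-type cyclins, their kinase partners, the CDK inhibitors that act on them and MDM2, in a human astrocytoma cell line treated with herbal extracts. They were chosen by name: CCND1, CCND2, CCND3, CDK4, CDK6, CDKN1A, CDKN1B, CDKN1C, CDKN2C and MDM2, which are 10 of the 60675 genes in the count table. Of these 10 genes, 9 passed the filter on low counts and were tested among 17516 genes. CCND2 did not pass and is described by its counts. MDM2 is neither a cyclin nor a CDK inhibitor. It is included as a p53 target and regulator beside CDKN1A.

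The cells were SW1783, an established human astrocytoma line, and poly(A) RNA was sequenced after 24 h of treatment. The 60 libraries formed 25 groups. The vehicle group (n = 3) received 0.1% DMSO by its sample labels, while the series text gives 2%. Each of the 8 extracts was a water extract given at 500 µg/mL (high), 100 µg/mL (medium) and 20 µg/mL (low). Cinnamomi Cortex (here Cinnamon), Astragali Radix (Astragalus), Cnidii Rhizoma (Cnidium), Rehmanniae Radix Preparata (Rehmannia) and the formula Sagunja-tang (Sagunja) had n = 3 at each dose. The formula Samul-tang (Samul) had n = 2 at each dose, and Angelicae Gigantis Radix (Angelica) and Paeoniae Radix (Paeonia) had 1 library at each dose. The sample titles give all 60 libraries the same batch name (BatchB). In the sample codes, vehicle libraries carry a different leading code (here a set) from all extract libraries. The labels of the extract libraries give no DMSO content. Set, any difference in solvent and treatment therefore cannot be told apart in comparisons with vehicle. High and low doses of an extract share 1 set code. The labels do not say whether replicates were separate cultures, so the p-values measure only the spread between these samples.

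D-type cyclins rise when growth factors act on a cell and bind CDK4 or CDK6. The active kinases phosphorylate the retinoblastoma protein, which frees E2F factors and lets the cell leave G1. Inhibitors of the CIP/KIP family (p21 from CDKN1A, p27 from CDKN1B, p57 from CDKN1C) bind cyclin-CDK complexes, while INK4 proteins such as p18 (CDKN2C) bind CDK4 and CDK6 directly. CDKN1A and MDM2 are both classical p53 target genes, and MDM2 is the ubiquitin ligase that keeps p53 low. CDK4, CDK6, CCND1, CCND2 and MDM2 are known for gene amplification in gliomas, and CDKN2C for deletion.

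Promoter sequence is shown for CDKN1A, CDK6 and CDKN2C, since these genes moved at the high dose of Cinnamon and the bases before their start sites lie at least in part outside their own exons. RefSeq (build GRCh38.p14) gave a promoter for 7 of the 10 genes; CCND1, CCND2 and CDKN1C had no entry. The stretches run 5′ to 3′ on the gene's strand, and capitals mark matches to a searched motif: GC boxes (GGGCGG) in CDKN1A and CDK6, and an E-box (CACGTG) in CDKN2C. The CDKN1A stretch is chr6:36678464-36678657 on the plus strand, positions -250 to -57 from the start site. The CDK6 stretch is chr7:92836595-92836823 on the minus strand, positions -250 to -22. The CDKN2C stretch is chr1:50960495-50960744 on the plus strand, positions -250 to -1.
CDKN1A: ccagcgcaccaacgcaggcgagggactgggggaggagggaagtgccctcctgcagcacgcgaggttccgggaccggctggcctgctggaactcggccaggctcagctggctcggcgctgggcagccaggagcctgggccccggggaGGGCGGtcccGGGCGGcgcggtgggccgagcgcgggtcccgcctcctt
CDK6: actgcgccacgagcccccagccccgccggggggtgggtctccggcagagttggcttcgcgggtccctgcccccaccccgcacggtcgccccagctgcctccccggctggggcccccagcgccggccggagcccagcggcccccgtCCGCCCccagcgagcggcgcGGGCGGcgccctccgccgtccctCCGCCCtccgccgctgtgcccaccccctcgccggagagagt
CDKN2C: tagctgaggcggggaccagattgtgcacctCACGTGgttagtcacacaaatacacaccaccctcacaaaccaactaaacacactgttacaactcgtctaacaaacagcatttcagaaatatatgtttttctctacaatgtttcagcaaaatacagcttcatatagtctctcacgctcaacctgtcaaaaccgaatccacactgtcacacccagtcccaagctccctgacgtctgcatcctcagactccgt
The CDKN1A and CDK6 stretches are rich in G and C (76.8% and 82.1%), against a median of 58.0% over the 250 bases before the start sites of all genes. The CDKN2C stretch has 45.6%. Within the stretches, the GC box occurs 2 times in CDKN1A, 3 times in CDK6 and 0 times in CDKN2C. Over the full 250 bases, a GC box was present in 42.3% of the 27305 promoters searched and an E-box in 6.49%. The other motifs searched on both strands of these 250-base windows were TATAAA (11.1% of promoters), TGACGTCA (1.77%), TGACNNNGC (11%), TGTTTAC (2.98%), TGANTCA (6.6%), CCAAT (33.0%) and TTTCCCGC (1.42%). None of these 7 motifs matched in the 3 stretches shown, and no matches overlapped. The matches describe letters in a window and are not binding sites.

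The 10 genes covered a wide range of levels. Per kilobase of exon, the median CPM (CPM is each gene's count relative to its library total, scaled by the trimmed mean of M-values) over 60 libraries was 35.1 for CCND1, 33.4 for CDK4 and 31.0 for CDKN2C. It was 13.7 for CCND3, 8.66 for CDKN1B, 7.38 for CDK6, 6.68 for CDKN1A and 3.25 for MDM2. CDKN1C was near the floor at 0.350, with 6 to 35 counts in a library, and CCND2 was at 0.00597. Cyclin D1 was thus the most abundant D-type cyclin transcript and p18 the most abundant of the 4 listed inhibitor transcripts on this scale. CDKN2A, an INK4 inhibitor gene outside the 10, had a median of 258.3 CPM against 102.9 for CDKN2C, neither per length. CCND2 had 0 counts in 14 of 60 libraries and at most 5 in the other 46. All 3 vehicle libraries had 0, which allows levels of up to 0.115, 0.121 and 0.122 CPM, and intervals or limits of this kind cover counting error only. All further levels are CPM within 1 gene, not per length.

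The positions of the genes come from GENCODE release 29 on GRCh38, where all 10 are protein coding. CCND1 (ENSG00000110092) is at chr11:69641087-69654474, CCND2 (ENSG00000118971) at chr12:4273772-4305350 and CCND3 (ENSG00000112576) at chr6:41934933-42050357. CDK4 (ENSG00000135446) is at chr12:57747727-57756013 and CDK6 (ENSG00000105810) at chr7:92604921-92836594. CDKN1A (ENSG00000124762) is at chr6:36676460-36687339, CDKN1B (ENSG00000111276) at chr12:12715058-12722371, CDKN1C (ENSG00000129757) at chr11:2883213-2885773 and CDKN2C (ENSG00000123080) at chr1:50960745-50974633. MDM2 (ENSG00000135679) is at chr12:68808176-68850686. CDK4 shares 1369 exonic bases with TSPAN31 on the opposite strand, MDM2 785 bases with AC025423.4, CCND1 497 bases with LTO1 and CDKN1A 146 bases with DINOL. MDM2 also shares 439 bases with a processed pseudogene on its own strand, and CCND2 989 bases with AC008012.1 on its own strand. The sources used here do not give how reads in shared bases were assigned.

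Library totals ran from 20604792 to 29609799 expected counts, with 22705 to 23990 genes detected. Sagunja low replicate 1 stood apart from its group: the SD of its log2 deviations from the mean of the other replicates was 0.786. The next highest was 0.428, in Sagunja low replicate 3, which is compared with a mean that includes replicate 1, and the median was 0.11. In Sagunja low replicate 1, genes with less than 2 kb of exon were a median of 0.54 log2 units above the other Sagunja low libraries. Genes with more than 10 kb were at -0.61. CDK6 (12.26 kb of exon) and MDM2 (13.28 kb) are among the long genes, and CDK4 has 3.168 kb. The library also widened the spread shared by all comparisons, so counts of calls are given with and without it. Of the 10 astrocyte markers, 5 reached 1 CPM, and their summed level was 423.5 to 557.7 CPM; GFAP, AQP4, S100B and ALDH1L1 stayed at or near 0. All 8 fibroblast and mural markers were present, with sums of 4450 to 6738 CPM.

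Among the members, the largest change was in CDKN1A (p21): at the high dose of Cinnamon its level was 1.91 times that of vehicle. At the same dose, CCND1 fell to 0.591 and CDK6 to 0.629 times vehicle, CDKN2C fell to 0.837 times and CDKN1B rose to 1.24 times vehicle. MDM2, CCND3, CDK4 and CDKN1C did not pass the test there. Against vehicle CCND1 was lower at nearly every dose of the extracts, and between high and low doses it changed in Cinnamon and Sagunja. Across the extracts at the high dose, 11 of 54 member tests were called at an adjusted p under 0.05 (edgeR's quasi-likelihood test, Benjamini-Hochberg over all genes tested), with 6 of 54 at the medium and 8 of 54 at the low dose. In the same comparisons, 1.35% to 22.8%, 0.297% to 6.32% and 0.383% to 22.1% of all genes were called. Without Sagunja low replicate 1 the member counts were 20, 16 and 12, where 5.57% to 35.9%, 1.37% to 17.6% and 1.79% to 14.1% of all genes were called. With no filter on low counts and no robust option, 16 of all 55 calls in the study were lost: CCND1 in Cinnamon low, in Cnidium at each dose and in Sagunja and Samul medium, CDKN1B in Rehmannia high, CDKN2C in Sagunja medium and in Cinnamon high against low, CCND3 in Sagunja high against low, and 6 differences of dose effects.

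**Figure D1:**
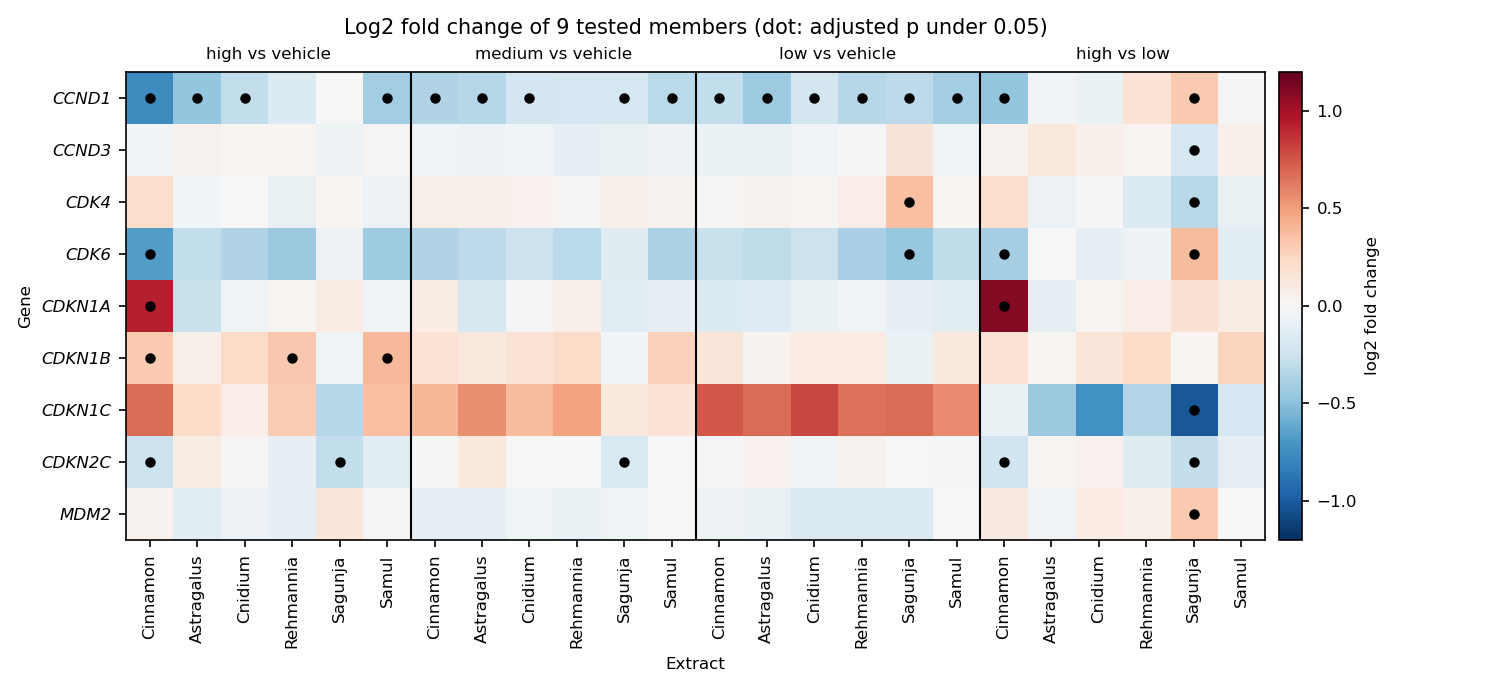
Log2 fold changes of the 9 tested genes (rows) in 24 comparisons (columns), from blue (lower) to red (higher), with a dot where the adjusted p was under 0.05. The left 3 blocks compare each dose with vehicle and the right block compares high with low dose; the CCND1 row is lower than vehicle in all groups but Sagunja high (-0.00) and the CDKN1A row stands out for Cinnamon high.

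CCND1, the main D-type cyclin transcript here, was highest in vehicle among all 25 groups and lowest in Cinnamon high. The vehicle libraries had 208.9, 213.5 and 215.5 CPM, and the Cinnamon high libraries had 124.6, 127.0 and 121.8 CPM. The groups did not overlap, as for 46.7% of all genes tested in that comparison. The log2 fold change was -0.76 ± 0.05 (SE; 95% interval -0.86 to -0.66; adjusted p = 4.59e-15), a level 0.591 times that of vehicle, where 22.8% of all genes were called. Cinnamon medium libraries had 168.9, 158.9 and 165.6 CPM and Cinnamon low 175.9, 170.1 and 169.4 CPM. Both groups lay between vehicle and the high dose without touching either.

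In the other extracts with replicates, CCND1 was also below vehicle in most groups. It was lower at the high dose of Astragalus (-0.47, adjusted p = 4.09e-08), Cnidium (-0.30, adjusted p = 0.000771) and Samul (-0.42, adjusted p = 5.37e-06). In these comparisons 4.45%, 1.35% and 4.13% of all genes were called and 2.07%, 0.502% and 1.85% were lower. Rehmannia high did not pass the test (-0.17, adjusted p = 0.0811), with 0.999% of all genes lower. Sagunja high was at the vehicle level, with 211.2, 205.9 and 213.1 CPM and a log2 fold change of -0.00 (95% interval -0.10 to 0.10). In all, CCND1 was called lower in 15 of the 18 comparisons with vehicle, which share the same 3 vehicle libraries, and in 17 without Sagunja low replicate 1. In 17 of the 18, no library of the extract overlapped vehicle, where 22.7% to 50.8% of all genes were apart.

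At the low dose the difference of CCND1 from vehicle ranged from -0.22 (Cnidium, adjusted p = 0.0412) to -0.44 (Astragalus, adjusted p = 5.2e-07). All 6 extracts were called at that dose, where 0.383% (Cnidium), 0.993% (Rehmannia), 1.06% (Cinnamon), 2.62% (Samul), 3.67% (Astragalus) and 22.1% (Sagunja) of all genes were called. The shares called lower were 0.0856%, 0.257%, 0.383%, 1.22%, 2.03% and 8.45% in the same order. The medium dose gave -0.36 for Cinnamon, -0.34 for Astragalus, -0.32 for Samul, -0.23 for Cnidium and -0.22 for Sagunja, all called. Rehmannia medium was not called by edgeR (-0.20, adjusted p = 0.0517). Of the 9 members tested in Rehmannia medium, edgeR called 0, with 3 at an unadjusted p under 0.05, and DESeq2 called 1. For the 5 called extracts, the shares of all genes called at the medium dose were 2.29%, 3.94%, 1.75%, 0.297% and 6.32% in the order above. The shares lower were 1.16%, 2.15%, 0.839%, 0.0685% and 2.81%. For Rehmannia 0.714% were called, with 0.12% lower. The Cnidium medium and low calls were lost on leaving out any of 6 and 11 single libraries, and the Samul medium call on leaving out either of its own libraries. The Sagunja low call was lost when only Sagunja low and vehicle were fitted (-0.32, adjusted p = 0.747, with 0% of all genes called).

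CCND3, the other D-type cyclin detected above a few counts, stayed close to vehicle. Vehicle libraries had 81.7, 84.79 and 80.0 CPM and Cinnamon high libraries 82.78, 76.61 and 79.51 CPM, which overlap. CCND3 lay wholly below vehicle in 7 of 18 comparisons and wholly above it in 0, where 22.7% to 50.8% of all genes were apart. Over the 18 comparisons its log2 fold change ran from -0.10 to 0.16, and 0 were called by edgeR or DESeq2, also at an unadjusted p under 0.05 in edgeR. Its highest group mean, 90.8 CPM in Sagunja low, rested on replicate 1 at 116.7 CPM, beside 81.75 and 73.94 CPM in the other libraries.

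CDK6, one of the D-cyclin kinases, had the same extreme groups as CCND1: vehicle had the highest mean and Cinnamon high the lowest. The order between them differed. Rehmannia high ranked 4 for CCND1 and 22 for CDK6 among the 25 groups, and Astragalus high ranked 24 and 10. Vehicle libraries had 114.4, 111.2 and 110.9 CPM and Cinnamon high libraries 66.95, 70.56 and 72.0 CPM, with no overlap. The log2 fold change was -0.67 ± 0.13 (95% interval -0.93 to -0.40; adjusted p = 0.000226), or 0.629 times vehicle. In the same comparison, genes with over 10 kb of exon had a median log2 difference of -0.11 and genes under 2 kb one of 0.01; the part of exon length in the CDK6 value was not tested. Cinnamon medium had 85.45, 89.5 and 84.66 CPM, and Cinnamon low had 93.08, 94.03 and 89.61 CPM.

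All 18 extract groups with replicates lay wholly below vehicle for CDK6, where 22.7% to 50.8% of all genes did not overlap in either direction. With all libraries, 2 of these 18 were called lower: Cinnamon high and Sagunja low. Without Sagunja low replicate 1, where the SE of CDK6 was near 0.05, 16 were called lower. High-dose values were then -0.31 for Astragalus, -0.37 for Cnidium, -0.45 for Rehmannia and -0.44 for Samul. The range of called genes in that fit was 5.57% to 35.9% at the high dose, 1.37% to 17.6% at the medium and 1.79% to 14.1% at the low dose. Sagunja low had 41.97, 96.84 and 104.2 CPM, so its call (-0.45, adjusted p = 0.0154) came with replicate 1 and was -0.16 (adjusted p = 0.0524) without it.

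CDK4, the paralogous kinase, did not fall with CDK6 at the high dose of Cinnamon. Vehicle libraries had 104.0, 106.5 and 104.8 CPM and Cinnamon high libraries 123.2, 115.4 and 122.4 CPM. These groups were apart, with a log2 fold change of 0.21 ± 0.10 that missed the threshold (adjusted p = 0.145). It was 0.20 and passed without Sagunja low replicate 1 (adjusted p = 0.00646). Rehmannia high (mean 97.8 CPM) and Samul high (99.5) lay wholly below vehicle (105.1) without being called, where 18.1% and 22.5% of all genes did. Against vehicle, the only call with all libraries was Sagunja low (0.36, adjusted p = 0.0126), whose libraries had 183.8, 113.6 and 103.4 CPM, and leaving out replicate 1 or fitting these 2 groups alone ended it.

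**Figure D2:**
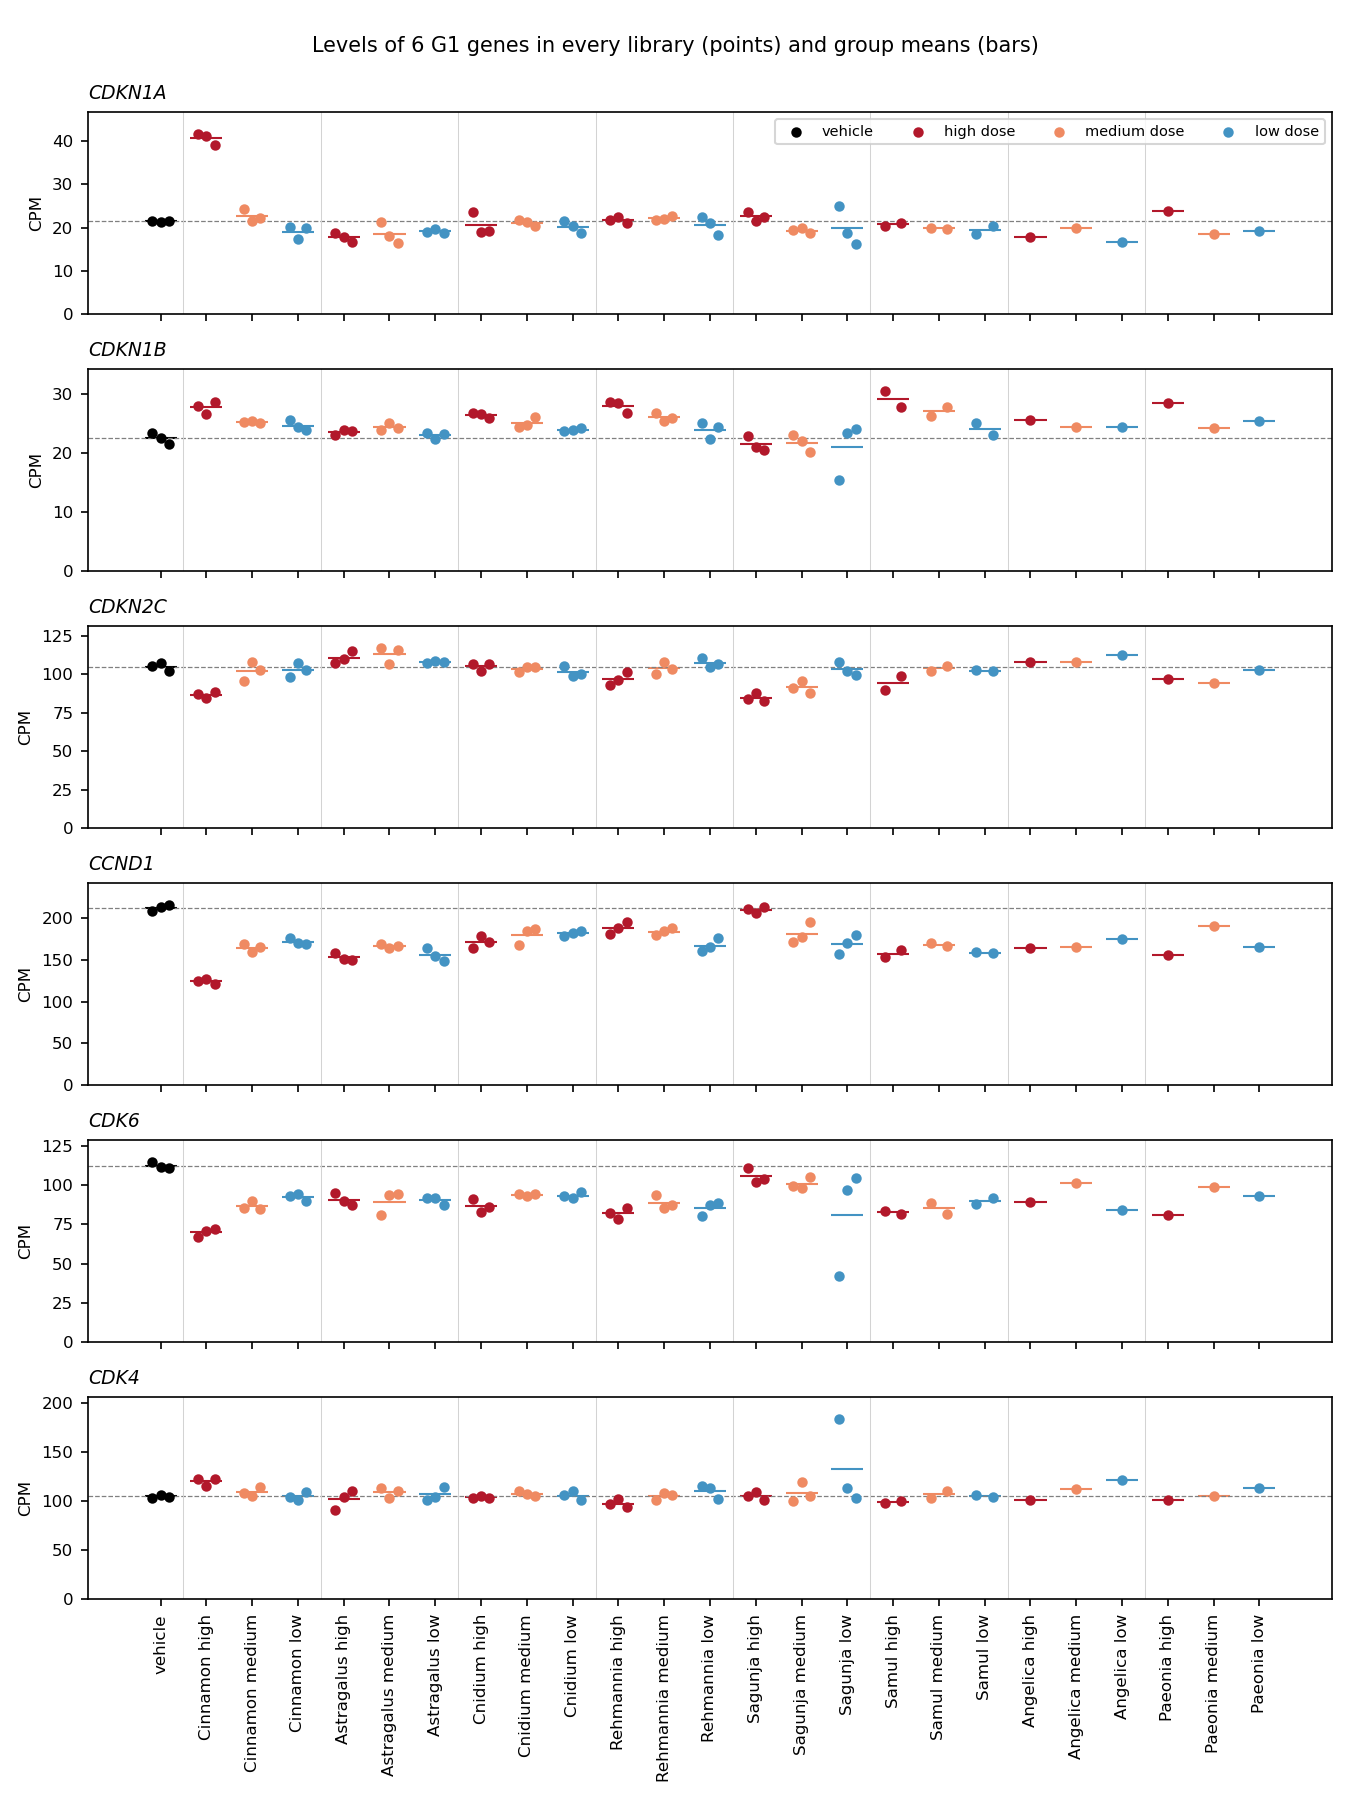
CPM of CDKN1A, CDKN1B, CDKN2C, CCND1, CDK6 and CDK4 in each library (points) with group means (short bars), in vehicle (black) and 8 extracts at high, medium and low dose (red, orange, blue). The dashed line is the vehicle mean; CDKN1A in Cinnamon high (39.02 to 41.63 CPM) lies above every other library, and 1 Sagunja low library departs for CDK4 and CDK6.

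CDKN1A encodes p21, the inhibitor best known as a p53 target. Vehicle libraries had 21.52, 21.29 and 21.59 CPM, and Cinnamon high libraries had 41.63, 41.2 and 39.02 CPM. The Cinnamon high libraries were above every other library in the study. The log2 fold change was 0.93 ± 0.09 (95% interval 0.75 to 1.12; adjusted p = 2.89e-10), or 1.91 times vehicle. At the medium dose of Cinnamon the libraries had 24.36, 21.41 and 22.32 CPM and at the low dose 20.04, 17.28 and 19.84 CPM. The medium dose overlapped vehicle and the low dose lay below it, with neither called.

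In order of group mean, CDKN1A in Cinnamon high (40.6 ± 1.40 CPM, SD, n = 3) was followed at a distance by Paeonia high (23.75 CPM, 1 library), Cinnamon medium (22.7 ± 1.51) and Sagunja high (22.6 ± 1.05). Below Cinnamon high, these neighbours in the order differ by less than 1 SD of the replicated groups. The vehicle mean was 21.5 ± 0.159 CPM. The lowest mean was Angelica low at 16.75 CPM, from 1 library. Of the 18 comparisons with vehicle, CDKN1A was called in 1, upward. Astragalus high (-0.28, adjusted p = 0.0133) and Sagunja low (-0.30, adjusted p = 0.0235) were called lower when Sagunja low replicate 1 was left out.

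CDKN1B, which encodes p27, rose at the high dose of 3 extracts. Vehicle libraries had 23.4, 22.42 and 21.51 CPM. Cinnamon high had 27.87, 26.54 and 28.56 CPM, Rehmannia high 28.51, 28.41 and 26.67 CPM, and Samul high 30.43 and 27.68 CPM. None of these groups overlapped vehicle. The log2 fold changes were 0.32 ± 0.08 for Cinnamon (adjusted p = 0.00338), 0.32 ± 0.08 for Rehmannia (adjusted p = 0.0193) and 0.39 ± 0.09 for Samul (adjusted p = 0.00711). Of all genes, 2.37% were called in Rehmannia high, and 11.8%, 1.37% and 2.28% were called higher in the 3 comparisons. The Rehmannia call was lost on leaving out any of 4 libraries (vehicle 2 or 3, Rehmannia high 1 or 2; adjusted p up to 0.1), and the Samul call on leaving out Samul high replicate 1 (adjusted p = 0.245).

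The other extracts gave smaller differences in CDKN1B. Cnidium high had 26.73, 26.61 and 25.88 CPM, above vehicle, and was called only without Sagunja low replicate 1 (0.23, adjusted p = 0.00457). Sagunja high, with 22.78, 21.04 and 20.5 CPM, overlapped vehicle. Over 18 comparisons CDKN1B was called higher in 3 with all libraries and in 7 without Sagunja low replicate 1, and it lay wholly above vehicle in 11. Wholly above vehicle were 9.47% to 24.7% of all genes in these comparisons, and without that library the shares of genes called in either direction were those given for CDK6.

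CDKN1C, which encodes p57, was too sparse for firm values. Vehicle libraries had 0.730, 0.485 and 0.735 CPM, and its log2 fold changes against vehicle ran from -0.34 to 0.81 with 0 called by edgeR or DESeq2 and 6 at an unadjusted p under 0.05 in edgeR. It lay wholly above vehicle in 8 of 18 comparisons, where 9.47% to 24.7% of all genes did.

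CDKN2C encodes p18, the INK4 member of the set, and was called lower at the high dose of 2 extracts. Vehicle libraries had 105.2, 107.1 and 102.2 CPM. Cinnamon high had 87.41, 84.76 and 88.33 CPM and Sagunja high 83.75, 87.78 and 82.51 CPM, both wholly below vehicle. The log2 fold change was -0.26 ± 0.05 for Cinnamon (adjusted p = 0.000171) and -0.29 ± 0.05 for Sagunja (adjusted p = 4.66e-05), where 17.1% of all genes were called. Sagunja medium, at 91.42, 95.42 and 88.02 CPM, was lower as well (-0.18, adjusted p = 0.0252, with 6.32% of genes called), though leaving out vehicle 1, vehicle 2 or Sagunja medium 3 ended that call. Rehmannia high (97.3 ± 4.27 CPM, SD, n = 3) and Samul high (94.5 ± 6.60, n = 2) also lay wholly below vehicle without being called. In those comparisons 18.1% and 22.5% of all genes did. Without Sagunja low replicate 1, 3 of 6 high-dose comparisons were called lower, where 5.57% to 35.9% of all genes were called. High-dose libraries lay wholly below low-dose ones in 4 of 6 extracts, where 14.4% to 41.5% of all genes were apart. In Astragalus and Cnidium the gene was not called lower at any dose, and Astragalus medium had the highest group mean, 113.2 ± 5.51 CPM (SD, n = 3).

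MDM2, the p53 ligase and p53 target, did not pass the test where CDKN1A rose. Vehicle libraries had 47.19, 45.08 and 47.06 CPM and Cinnamon high libraries 46.64, 44.39 and 50.87 CPM, which overlap, with a log2 fold change of 0.04 ± 0.09 (95% interval -0.14 to 0.22). Over the 18 comparisons its values ran from -0.17 to 0.15, and 0 were called by edgeR or DESeq2 fitted on all 54 libraries, also at an unadjusted p under 0.05 in edgeR. Fitted on only the 2 groups compared, edgeR called MDM2 in 3 of them: Sagunja high (0.13, adjusted p = 0.0238), Rehmannia low (-0.17, adjusted p = 0.0188) and Cnidium low (-0.17, adjusted p = 0.0335), where 41.1%, 8.04% and 4.43% of all genes were called. The highest group mean was 50.91 CPM in Sagunja high, whose libraries (52.92, 48.42 and 51.38 CPM) lay above vehicle, as for 23.4% of all genes. Of the 18 comparisons, MDM2 lay wholly above vehicle in 1 and wholly below it in 7, where 22.7% to 50.8% of all genes were apart.

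High against low dose within an extract compares libraries of 1 set and asks whether the level depends on dose. Cinnamon gave 4 calls, where 21.6% of all genes were called. CDKN1A rose by 1.10 ± 0.10 on the log2 scale (95% interval 0.91 to 1.28; adjusted p = 4.24e-12), or 2.14-fold. CCND1 changed by -0.46 ± 0.05 (adjusted p = 4.01e-09), CDKN2C by -0.24 ± 0.05 (adjusted p = 0.000503) and CDK6 by -0.40 ± 0.13 (adjusted p = 0.0301). Each of these genes had high-dose libraries that did not overlap the low-dose libraries, as for 41.5% of all genes. The CDK6 call was lost on leaving out any 1 of the 6 libraries compared (adjusted p up to 0.105) but was 1.14e-08 without Sagunja low replicate 1. In that fit CDK4 (0.20, adjusted p = 0.00619) and CDKN1B (0.17, adjusted p = 0.00863) were called higher as well.

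Sagunja gave 7 calls between high and low dose, where 20.5% of all genes were called, and most rested on 1 library. With all libraries, CCND1 (0.31, adjusted p = 3.35e-05), CDK6 (0.38, adjusted p = 0.0424) and MDM2 (0.31, adjusted p = 0.015) were higher at the high dose. CCND3 (-0.21, adjusted p = 0.048), CDK4 (-0.34, adjusted p = 0.0206), CDKN1C (-1.02, adjusted p = 0.0238) and CDKN2C (-0.28, adjusted p = 0.000134) were lower. Without Sagunja low replicate 1, 6.49% of all genes were called, and CCND1 (0.27, adjusted p = 0.000169) and CDKN2C (-0.25, adjusted p = 0.000615) were still called. CDKN1A was then also higher (0.37, adjusted p = 0.00411), while CDK6 was at 0.07, MDM2 at 0.15, CDK4 at -0.04, CDKN1C at -0.84 and CCND3 at 0.01, none called. The CCND3 call was lost on leaving out any of 47 of the 54 libraries. Leaving out single Sagunja high libraries also ended the calls of CDK4 (replicate 1 or 3), CDKN1C (2 or 3), CDK6 (any of the 3) and MDM2 (1). Fitted on the high and low Sagunja libraries alone, edgeR called 0 members and 0.14% of all genes, with 2 members at an unadjusted p under 0.05. The dose range of CCND1 in Sagunja thus ran from 157.2, 170.4 and 180.2 CPM at the low dose to the vehicle level at the high dose, the opposite direction to Cinnamon.

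Astragalus, Cnidium, Rehmannia and Samul gave 0 member calls between high and low dose, where 0.28%, 0.228%, 0.805% and 0.736% of all genes were called. Of these 36 edgeR tests, 5 had an unadjusted p under 0.05, and DESeq2 called 1. For CDKN1A the intervals were -0.31 to 0.08, -0.16 to 0.22, -0.11 to 0.27 and -0.15 to 0.32, all below the Cinnamon interval. Without Sagunja low replicate 1, with 3.51% of genes called in Rehmannia and 1.92% in Samul, CDKN1B was called higher at the high dose of Rehmannia (0.22, adjusted p = 0.00813) and Samul (0.28, adjusted p = 0.00926). CCND1 was called higher at the high dose of Rehmannia (0.17, adjusted p = 0.016). Over all 6 extracts, 11 of 54 high-against-low tests were called.

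**Figure D3:**
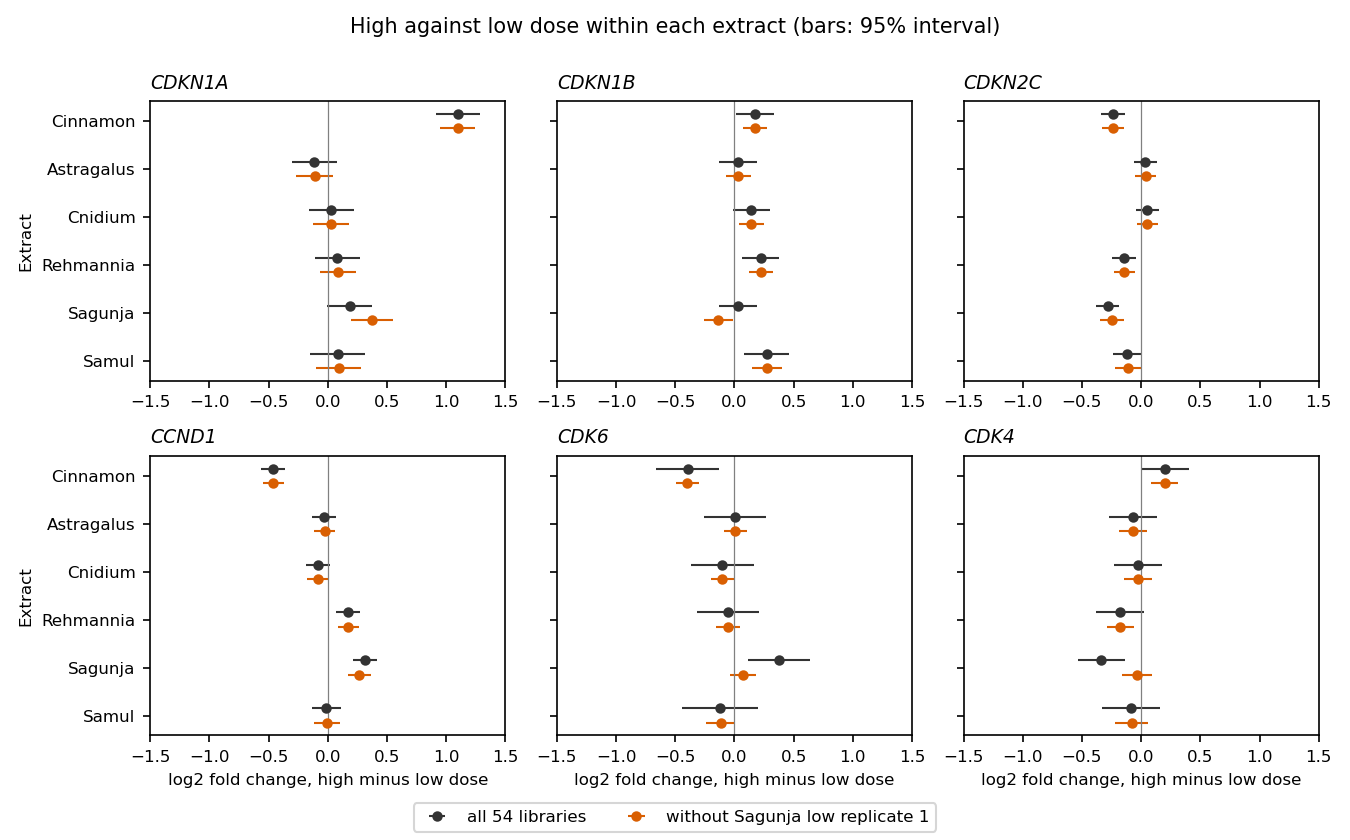
High minus low dose log2 fold change (x axis) of 6 genes in each of 6 extracts (y axis), with 95% intervals, from all 54 replicated libraries (dark) and without Sagunja low replicate 1 (orange). Cinnamon is apart from the other extracts for CDKN1A and CCND1; the Sagunja points for CDK4 and CDK6 move to near 0 when that library is left out.

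The difference of dose effects between extracts was tested for all 15 pairs, and 19 of 135 member tests were called (31 to 33 on leaving out any 1 of the Sagunja low libraries). CDKN1A rose more with dose in Cinnamon than in each of the other 5 extracts, by 0.91 (Sagunja, adjusted p = 3.65e-06) to 1.21 (Astragalus, adjusted p = 8.14e-09) on the log2 scale. CCND1 fell more with dose in Cinnamon than in each of the other 5, with differences of -0.38 (Cnidium, adjusted p = 0.000276) to -0.77 (Sagunja, adjusted p = 1.15e-10). The share of all genes called in these 5 pairs was 14.4% with Astragalus, 10.9% with Cnidium, 11.1% with Rehmannia, 25.1% with Sagunja and 6.78% with Samul. CDKN2C differed between Cinnamon and both Astragalus (-0.27) and Cnidium (-0.29), and between Sagunja and the same pair (0.32 and 0.34). Further CCND1 calls were Astragalus minus Sagunja, Cnidium minus Sagunja and Sagunja minus Samul, where 6.23%, 4.57% and 2.89% of all genes were called. The other 7 pairs had no member among the calls, with 3.29% of genes called between Rehmannia and Sagunja, 0.354% between Astragalus and Samul, 0.343% between Astragalus and Rehmannia, 0.0742% between Cnidium and Samul, 0.0571% between Astragalus and Cnidium, 0.04% between Cnidium and Rehmannia and 0% between Rehmannia and Samul. Fitted on only the groups compared, the 3 CCND1 and 2 CDKN2C differences of Astragalus, Cnidium or Samul with Sagunja and the Cinnamon minus Sagunja differences of CDK4 and CDK6 were not called. These differences share the Cinnamon or Sagunja libraries and so are not independent.

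Angelica and Paeonia had 1 library at each dose and therefore no replicate check. On the scale of log2((CPM + 1)/(vehicle mean CPM + 1)), no tested member was past 1.5-fold in any of the 6 libraries, where 0.668%, 0.679% and 0.811% of all genes were in Angelica high, medium and low and 1.47%, 0.502% and 0.554% in Paeonia. CCND1 was at -0.16 to -0.44 and CDK6 at -0.15 to -0.46, below vehicle in all 6. CDKN1B was at 0.10 to 0.33, above the vehicle mean in all 6. CDKN1A was highest in Paeonia high (0.14) and lowest in Angelica low (-0.34).

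The genes around the members were described from lists of p53 targets, the RB and E2F families, cyclin E and CDK2, S phase, mitosis and others. At the high dose of Cinnamon, 7 of 20 tested p53 targets were higher than vehicle and 1 lower, with a median of 0.29, where 11.8% of all genes were higher, 10.9% lower and the median was 0.00. The largest were PHLDA3 (0.58 ± 0.14, adjusted p = 0.00145), an inhibitor of AKT signalling, and BAX (0.48 ± 0.17, adjusted p = 0.0325), a pro-apoptotic BCL2 family member. SESN2, a stress-induced sestrin, was at 0.46 ± 0.07 (adjusted p = 2.17e-06). The 1 lower target was AEN (-0.25), named after its value was seen. Of 8 p53 regulators 1 was higher and 1 lower, with a median of -0.04: MDM4, the MDM2 relative that restrains p53, fell (-0.41 ± 0.08, adjusted p = 8.77e-05) and CHEK2, a DNA damage kinase, rose (0.28 ± 0.08, adjusted p = 0.00553). Without Sagunja low replicate 1, 10 p53 targets were higher and 4 lower, where 17.6% of all genes were higher and 18.3% lower.

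Downstream of the D-cyclin kinases, few genes of the RB and E2F step passed the test at this dose, and more of the mitosis list did, where 10.9% of all genes were lower. Of 13 RB and E2F genes, 1 was lower (E2F2, -0.43 ± 0.12, adjusted p = 0.00667) and the median was -0.11. None of 9 genes of the cyclin E and CDK2 step and none of the 3 other INK4 inhibitors was called by edgeR, with medians of -0.05 and 0.02 and 1 gene of each list at an unadjusted p under 0.05. In the S phase list 4 of 14 were lower, among them POLA1 (-0.40), RRM2 (-0.16) and MCM3 (-0.16). Of 15 mitosis genes, 11 were lower and the median was -0.33. CENPE, a kinetochore motor, was at -1.89 ± 0.15, the proliferation marker MKI67 at -1.44 ± 0.16, CENPF at -1.21 ± 0.15 and TOP2A at -0.50 ± 0.05. Cinnamon high libraries varied for CENPE (17.6 ± 7.65 CPM, SD), MKI67 (120.8 ± 23.0) and CENPF (118.4 ± 28.6), with vehicle means of 65.9, 332.0 and 277.1 CPM. CDK1 had a higher mean than vehicle (76.5 against 72.5 CPM). Genes with over 10 kb of exon had a median of -0.11 in this comparison, and the part of exon length in these values was not tested. With Sagunja low replicate 1 left out, the counts were 6 lower and 1 higher of 13 RB and E2F genes, 7 lower of 14 S phase genes and 14 lower of 15 mitosis genes, where 18.3% of all genes were lower and 17.6% higher.

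Between the high and low dose of Cinnamon, 6 of 20 p53 targets were higher and 0 lower (median 0.19; 2 were lower at an unadjusted p under 0.05), where 10.3% of all genes were higher and 11.2% lower. They included PHLDA3 (0.73), SESN2 (0.56), BAX (0.51) and GADD45A (0.49). Of the 15 mitosis genes 6 were lower, with a median of -0.16. Of 8 genes of D cyclin turnover and growth control 1 was lower, with a median of 0.09: FBXO4, an F-box protein linked to cyclin D1 turnover (-0.43, adjusted p = 0.00198).

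**Figure D4:**
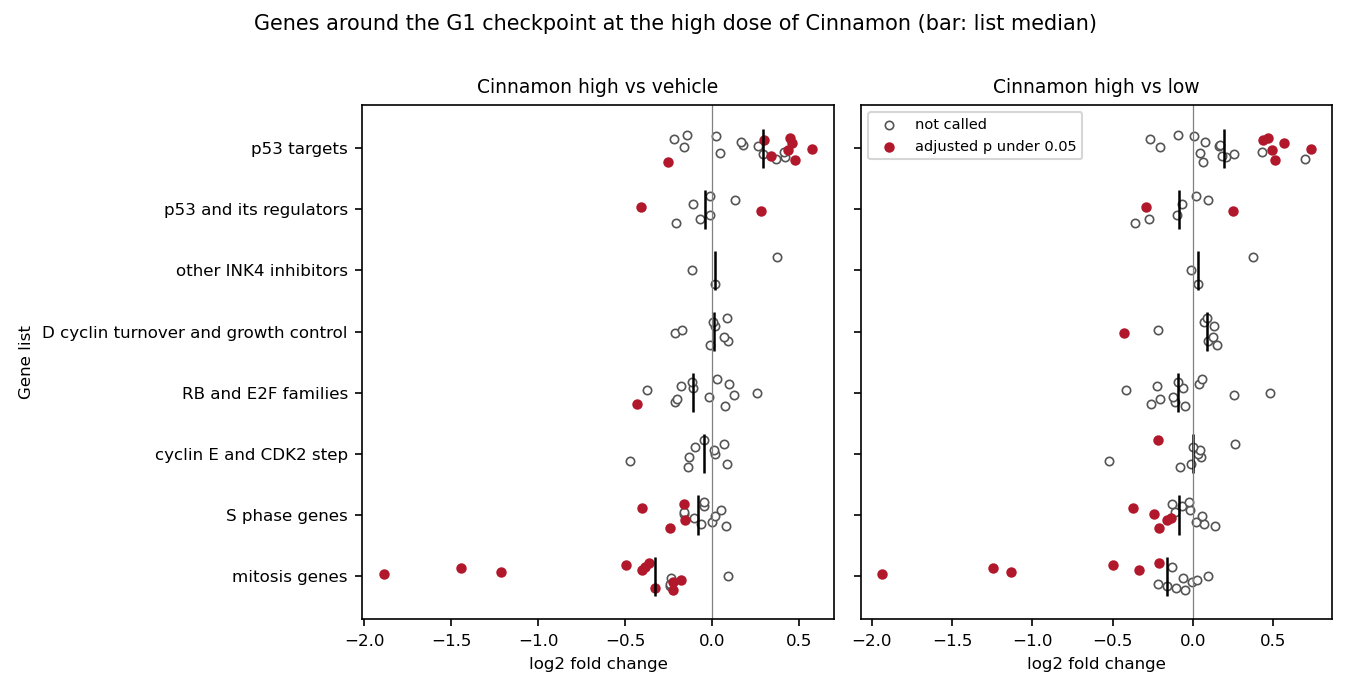
Log2 fold change (x axis) of each tested gene in 8 lists (y axis) for Cinnamon high against vehicle (left) and against Cinnamon low (right); filled points have an adjusted p under 0.05 and bars are list medians. The p53 targets lie mostly to the right of 0 and the mitosis genes mostly to the left, with medians of 0.29 and -0.33 against vehicle.

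At the high dose of Sagunja, where CDKN2C fell and CDKN1A did not pass the test (0.09), the lists looked different from those of Cinnamon. Of 20 p53 targets, 4 were higher and 1 lower with a median of 0.00, where 8.94% of all genes were higher and 8.11% lower. Leaving out Sagunja low replicate 1 gave 6 higher and 4 lower, where 15.2% of all genes were higher and 15.8% lower. With all libraries they were GADD45A (0.63), TNFRSF10B (0.41), FAS (0.34) and TIGAR (0.33) above vehicle and ZMAT3 (-0.30) below it. Of the cyclin E and CDK2 step, CCNE1 (0.18) and CDC6 (0.26) were higher. Of 15 mitosis genes, 3 were lower (PLK1 -0.50, TPX2 -0.21, CCNB2 -0.18) and CDK1 was higher (0.32). Whether these list counts differ between Cinnamon and Sagunja was not tested.

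Marker sums for other cell types also moved at the high dose of Cinnamon. Fibroblast and mural markers summed to 4450 to 5188 CPM against 6655 to 6694 CPM in vehicle, epithelial markers to 85.26 to 91.54 against 244.4 to 246.9, and neuron markers to 109.3 to 120.0 against 141.9 to 143.7. Of the 5 epithelial markers 2 reached 1 CPM, and most of their sum was KRT18 (mean 75.6 against 225.9 CPM). Most of the neuron sum was TUBB3 (87.7 against 114.4 CPM), while MAP2 had a higher mean than vehicle (7.51 against 6.82 CPM). Of the 7 immune markers 2 reached 1 CPM, and their sum was 203.0 to 233.8 CPM against 164.2 to 175.3. CD68 had a mean of 210.1 CPM against 162.3 in vehicle and PTPRC one of 4.13 against 8.55, while CD3E and AIF1 were at or near 0. Astrocyte markers summed to 539.0 to 557.7 CPM against 533.6 to 549.1, with means of 279.7 against 249.6 CPM for GJA1, 68.7 against 88.0 for SOX9 and 16.4 against 22.1 for SLC1A3. Of the fibroblast and mural markers, COL3A1 (32.8 against 29.1 CPM) and LUM (29.7 against 27.0) had higher means than vehicle and the other 6 lower ones. The part of these shifts in the results for the members was not tested. All libraries came from the SW1783 line, so these sums describe RNA levels and do not count cells of other types. In bulk samples, a change in some of the cells and a change in all of them cannot be told apart.

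Genes with the most similar pattern were ranked by Pearson's r of group mean log2 CPM over the 19 replicated groups, among 11001 candidates, as a description. For CDKN1A they were INSIG1 (r = 0.959), SRXN1 (0.953) and ADM (0.939). For CCND1 they were TIMP3 (0.931), AKAP12 (0.893) and PDLIM5 (0.877), and for CDK6 SLC35F2 (0.923), TGM2 (0.903) and GLIPR1 (0.903). For CDKN1B they were SGK1 (0.942), SLC1A1 (0.916) and TRIM4 (0.915), and for CDKN2C HR (0.926), TSPAN18 (0.924) and PTPRU (0.916). CDK4 was closest to POLD4 (0.954), MEA1 (0.952) and TMEM256 (0.925), MDM2 to NAA50 (0.879), RAB8B (0.876) and PPP2R1B (0.856), CCND3 to DFFA (0.832), THOC5 (0.806) and PHB2 (0.806), and CDKN1C to PKDCC (0.809), TSC22D3 (0.791) and ASAP3 (0.759). Among the members, CCND1 and CDK6 had the highest r of any pair (0.756). CDKN1A and MDM2 came next (0.414), followed by CDK4 and CDKN1C (0.376). The r values of CDKN1A rest largely on Cinnamon high, at 40.6 CPM against 22.7 in Cinnamon medium, the next replicated group. The groups share the scaling and the spread of Sagunja low replicate 1.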

How the data were processed

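RNA from SW1783 cells was sequenced in 60 libraries as 100 bp paired reads, per the labels' protocols. The authors deposited a table of expected counts per gene, and RSEM 1.3.3, STAR 2.7.3a, FastQC 0.11.9 and Trim Galore 0.6.5 with build hg38/GRCh38 are named, per the submitters' processing notes; the annotation release and strand setting are not given in the sources used here. Of the 279 columns, 60 matched samples by name and 219 were not used. Expected counts were rounded (90.67% were already whole within 1e-06). The 54 libraries of the 19 replicated groups were fitted together in edgeR 4.0.16 (filterByExpr, TMM factors 0.936 to 1.028 over these libraries, quasi-likelihood test with robust fit, no replicate term, 35 residual degrees of freedom), with Benjamini-Hochberg adjustment over 17516 genes in each contrast. SE is the absolute log2 fold change over the square root of F. Tests on simulated data for Cinnamon high against vehicle (17236 genes) had 50 genes at each size; the share called was 20% for a 1.25-fold change, 70% for a 1.5-fold change, 96% for a 2-fold change and 100% for a 4-fold change, with 7 false calls. DESeq2 1.42.0 was an alternative. Levels are CPM with TMM factors over all 60 libraries; exon length is the union of GENCODE release 29 exons, and symbols matched 56558 genes. Single libraries were compared by log2((CPM + 1)/(vehicle mean CPM + 1)) with no test. Named genes were all members, the 3 genes closest in pattern to each, and up to 4 called genes of each list with the largest log2 fold change and at least 1 CPM. The members and lists were chosen with earlier results of these data known. Alternatives tried were other scaling, no filter, DESeq2, a replicate block, fits on only the groups compared and leaving out each library. Some genes of the lists are counted but not reported by name here.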

Additional observations from a re-analysis of the deposited data

Results flagged for a closer look

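Each result here is a dose effect (high minus low dose, log2) that differed between 2 extracts by a test of the difference itself, at an adjusted p under 0.05 (edgeR's quasi-likelihood test). For CDKN1A, Cinnamon minus the other extract was 1.21 for Astragalus (adjusted p = 8.14e-09), 1.07 for Cnidium (1.64e-07), 1.02 for Rehmannia (4.46e-07), 0.91 for Sagunja (3.65e-06) and 1.01 for Samul (7.78e-06). For CCND1, Cinnamon minus the other was -0.43 for Astragalus (3.3e-05), -0.38 for Cnidium (0.000276), -0.63 for Rehmannia (2.02e-08), -0.77 for Sagunja (1.15e-10) and -0.45 for Samul (0.000199).

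Sagunja also differed from 3 further extracts for CCND1. Astragalus minus Sagunja was -0.34 (adjusted p = 0.00233), Cnidium minus Sagunja was -0.40 (0.000372) and Sagunja minus Samul was 0.32 (0.0179), the last lost on leaving out any of 3 Samul libraries. In these 3 pairs 6.23%, 4.57% and 2.89% of all genes were called. For CDKN2C, Cinnamon minus Astragalus was -0.27 (0.00709), Cinnamon minus Cnidium -0.29 (0.00478), Astragalus minus Sagunja 0.32 (0.00408) and Cnidium minus Sagunja 0.34 (0.00244). For the kinases, Cinnamon minus Sagunja was 0.54 for CDK4 (0.00735) and -0.77 for CDK6 (0.00321). The CDK4 value was lost without Sagunja low replicate 1, and every Sagunja difference includes that library. In a fit of only the groups compared, these 3 CCND1 differences, both CDKN2C differences with Sagunja and both kinase differences were lost.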

How the results depend on the processing

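All 55 member calls held with DESeq2 and with DESeq2 size factors in edgeR, 51 with library size alone, 39 with no filter on low counts and no robust option (chosen after seeing the data, since no filter with the robust option could not be fitted) and 38 when each comparison was fitted on its own groups alone. The 17 calls lost there all involve Sagunja low: 3 against vehicle (CCND1, CDK4, CDK6), 7 between high and low dose and 7 differences of dose effects. Fits on the compared groups gave 20, 14 and 13 calls against vehicle at high, medium and low dose and 7 between high and low; the cause was not tested. Leaving out 1 library gave 10 to 20, 4 to 16 and 7 to 12 calls against vehicle, 7 to 12 between high and low and 18 to 33 differences of dose effects. The highest counts against vehicle and between doses (20, 16, 12 and 12) came without Sagunja low replicate 1, and the lowest between doses (7) without Sagunja high replicate 1 or 3. The differences numbered 31, 32 and 33 without Sagunja low replicate 1, 2 and 3. CCND3 in Sagunja high against low reversed to 0.00901 without Sagunja low replicate 1 and was -0.338 without Sagunja low replicate 3. The 5 Cinnamon high calls against vehicle held on leaving out each of the 54 libraries in turn. Over all tested genes, deviations of same-numbered replicates had correlations of -0.15 to 0.14 between the groups compared. Different extracts of 1 set were not paired in this way, so whether these replicates share more than a number was not tested there. The replicate block gave 11, 7, 8, 11 and 19 calls and kept all 55, with CDKN1A in Cinnamon high at 0.93. For single libraries, CPM + 0.1 put 3 values past 1.5-fold in place of 0, all of CDKN1C (0.81 in Angelica medium, 0.88 in Paeonia high, 0.60 in Paeonia low). Counts of 6 to 35 limit CDKN1C, and counts of 0 to 5 limit CCND2.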
